A study of Homo sapiens with 8 samples.

Results

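Ribosome footprints were followed on a pair of transgenes, a pyrrolysyl-tRNA synthetase listed as CMV-pylRS-I-P_2512-3801 and an amber GFP reporter listed as pSD31-GFP39-I-H, called the synthetase and GFP39 from here on. They were found by their entry names in the deposited tables, where they are 2 of 82586 transcript entries, and both were present in all tables. The other 82584 entries are endogenous, 65001 of them protein-coding. The cells are HEK293T, an established line of human embryonic kidney origin with the SV40 large T antigen. The 8 libraries fall into 4 groups of 2: HEK293T cells without NAEK, HEK293T cells with 1 mM NAEK, and transgenic HEK293T cells, stably transfected with Mb pyltRNA, without NAEK and with 1 mM NAEK. The labels name only the tRNA as the stable insert. No source used here says whether the line is a single clone or whether replicates are separate cultures. P-values therefore reflect how far these libraries lie apart, which may be technical.

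In a pyrrolysine system, a pyrrolysyl-tRNA synthetase from an archaeon attaches a supplied amino acid to its own tRNA, whose anticodon pairs with the amber stop codon UAG. NAEK is a lysine derivative with an azide group that such synthetases accept. Where the charged tRNA wins over the release factors at UAG, the ribosome reads on to the next stop codon in frame. A GFP gene with an amber codon inside its reading frame is the usual reporter of that event. Footprints after the codon are taken to come from ribosomes that passed it, which was not tested here.

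In ribosome profiling, the pieces of mRNA that ribosomes shield from nuclease are sequenced. Values are RPKM, reads scaled to the length of a region and to the total reads of a library, and are called density here. Each entry has a coding region, a first extended region and a second extended region. No source used here defines the extended regions, and they were read as the stretches up to the next stop codons in frame. Libraries held 12923243 to 20569590 reads, of which coding regions took 89.0 to 89.1%. The density of a gene in such bulk samples joins mRNA amount, ribosomes per mRNA and the share of cells that carry the gene, which cannot be told apart.

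The synthetase carried dense footprints in all 4 transgenic libraries, at levels that overlapped with and without NAEK. Its coding density was 5820 and 5538 RPKM without NAEK and 5565 and 5615 RPKM with it. In HEK293T libraries it was 11.4 and 9.81 RPKM without NAEK and 7.24 and 9.67 RPKM with it. The transgenic libraries thus stood far above all HEK293T libraries, while those with and without NAEK overlapped. The change with NAEK in transgenic cells was -0.02 on the log2(RPKM + 1) scale, with a 95% interval from -0.33 to 0.28 (limma adjusted p = 0.994), and -0.23 after quantile normalization (adjusted p = 0.945, the lowest over 12 alternatives, which reached 1.0).

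Only 2 endogenous coding regions were denser than the synthetase. It ranked 3 among 82584 endogenous entries in each of the 4 transgenic libraries. The entries above it were ENST00000377803, at 6189 and 7537 RPKM without NAEK, and ENST00000621411, at 6214 and 6830 RPKM. The deposited tables and the reference tables used here do not pair these identifiers with gene symbols. The next entry below it reached 4638 and 4600 RPKM without NAEK and 4311 and 4067 RPKM with it, so the synthetase was 1.204 to 1.38 times as dense as its nearest lower neighbour. Ranks count transcript entries, and isoforms of a gene can share reads.

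By number of reads, the synthetase was the most heavily read coding entry of the transgenic libraries, with genes not summed over their isoforms. Its reads numbered 130509 and 131223 in the libraries without NAEK, and 123552 and 93608 in those with it. The endogenous entry next in reads had 56875 and 59928, and 53628 and 43241, in the same order. The synthetase thus took 0.844 and 0.802% of all coding reads without NAEK and 0.807 and 0.814% with it. Its region spans 1290 nt, from position 2512 to position 3801 of the construct as its entry name gives them.

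No read was listed after the stop codon of the synthetase. Both of its extended regions stood at 0 in all 8 libraries, so no test was possible. The floor of 3 reads set here for a count of 0 is 0.00229 to 0.0032% of its coding reads in the transgenic libraries. That holds only if the authors counted an extended region for this entry at all. Its entry may hold none, which was not tested. Among 88 endogenous protein-coding entries that averaged 10000 or more coding reads, 8 also had no first extended read in any library, or 9.09%.

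The coding density of GFP39 was higher in both transgenic libraries with NAEK than in both without it. The coding region came out as 144 nt, or 48 codons. Without NAEK its density was 3664 and 3761 RPKM in transgenic cells, on 9172 and 9948 reads. With NAEK it was 6264 and 6980 RPKM, on 15525 and 12989 reads. The libraries with and without NAEK did not overlap, and the means differed 1.78-fold. Of 46154 endogenous coding regions tested, 23.9% also had both libraries with NAEK above both without. In HEK293T libraries the density was 21.7 and 10.2 RPKM without NAEK and 8.78 and 8.15 RPKM with it.

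By limma, the GFP39 coding change in transgenic cells was 0.83 on the log2 scale (SE 0.27, 95% interval 0.21 to 1.46) and did not pass after adjustment over all coding regions (adjusted p = 0.791). The share of coding regions that passed this test was 0.0%, against 2739 of 46156 with an unadjusted p under 0.05. With limma's voom on recovered reads 9 passed, GFP39 among them (adjusted p = 0.000193), and over 12 alternatives its adjusted p ran from 0.000193 to 1.0. The SE of 0.27 shares the spread of all 4 groups, among them HEK293T libraries without NAEK at 21.7 and 10.2 RPKM. In a limma fit of only the 4 transgenic libraries, the SE was 0.09. The 95% interval was then 0.61 to 1.06, and the change still did not pass (adjusted p = 0.543).

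By coding density, GFP39 stood below the synthetase in both transgenic libraries without NAEK and above it in both with NAEK. In number of coding reads, the synthetase exceeded GFP39 14.2- and 13.2-fold without NAEK and 7.96- and 7.21-fold with it. By reads, GFP39 ranked 119 and 112 among endogenous entries without NAEK and 29 and 19 with it. By density it ranked 7 and 6 without NAEK and 2 in both libraries with it, below ENST00000377803 alone. The density of that entry was 6357 and 7235 RPKM with NAEK, and its mean lay within 1 SD of that of GFP39. In HEK293T libraries GFP39 ranked between 8458 and 17827. The plot of density against rank shows both transgenes at the upper end of the endogenous range.

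**Figure D1:**
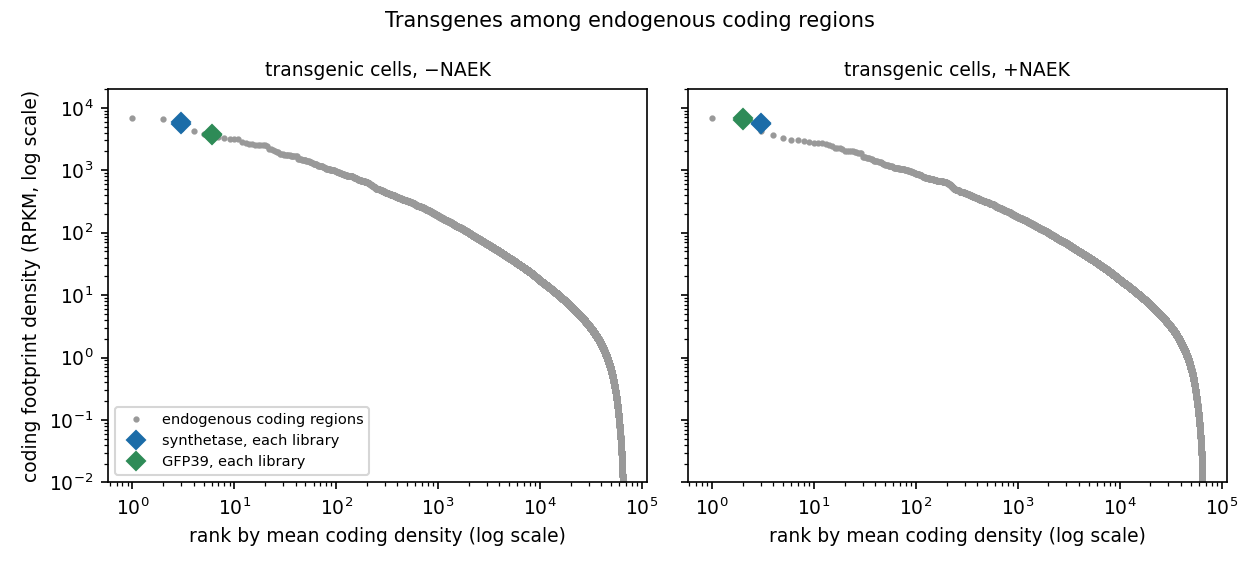
Coding footprint density in RPKM (log axis) against rank (log axis) for endogenous coding regions with reads, ordered by the mean of 2 transgenic libraries, without NAEK on the left and with NAEK on the right. Diamonds give each library of the synthetase and of GFP39 at the rank of their means, which is 3 and 6 without NAEK and 3 and 2 with it.

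Set against the synthetase in the same library, which removes the library total, GFP39 coding density was 0.630 and 0.679 times that of the synthetase without NAEK. With NAEK it was 1.13 and 1.24 times that of the synthetase. The ratio was 1.81-fold higher with NAEK and its libraries did not overlap (exact two-sided permutation p = 0.333, the smallest that 2 libraries against 2 allow). The densest endogenous coding regions were compared next. Of 90 with a mean of at least 1000 RPKM in the transgenic libraries, the changes with NAEK ran from -1.11 to 0.27 on the log2 scale with a median of -0.12. None was as large as the 0.83 of GFP39, a size that 0.464% of all 46154 endogenous coding regions tested reached or passed.

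Footprints after the GFP39 stop codon rose 9.79-fold with NAEK in transgenic cells by the mean densities. The first extended region came out as 672 nt. Its density was 142 and 129 RPKM without NAEK, on 1654 and 1587 reads. With NAEK it was 1312 and 1333 RPKM, on 15173 and 11579 reads. In HEK293T libraries it was 1.55 and 1.60 RPKM without NAEK and 0.868 and 0.735 RPKM with it. All transgenic libraries lay above all HEK293T libraries, and those with NAEK lay above those without, as the plot of densities by library shows.

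**Figure D2:**
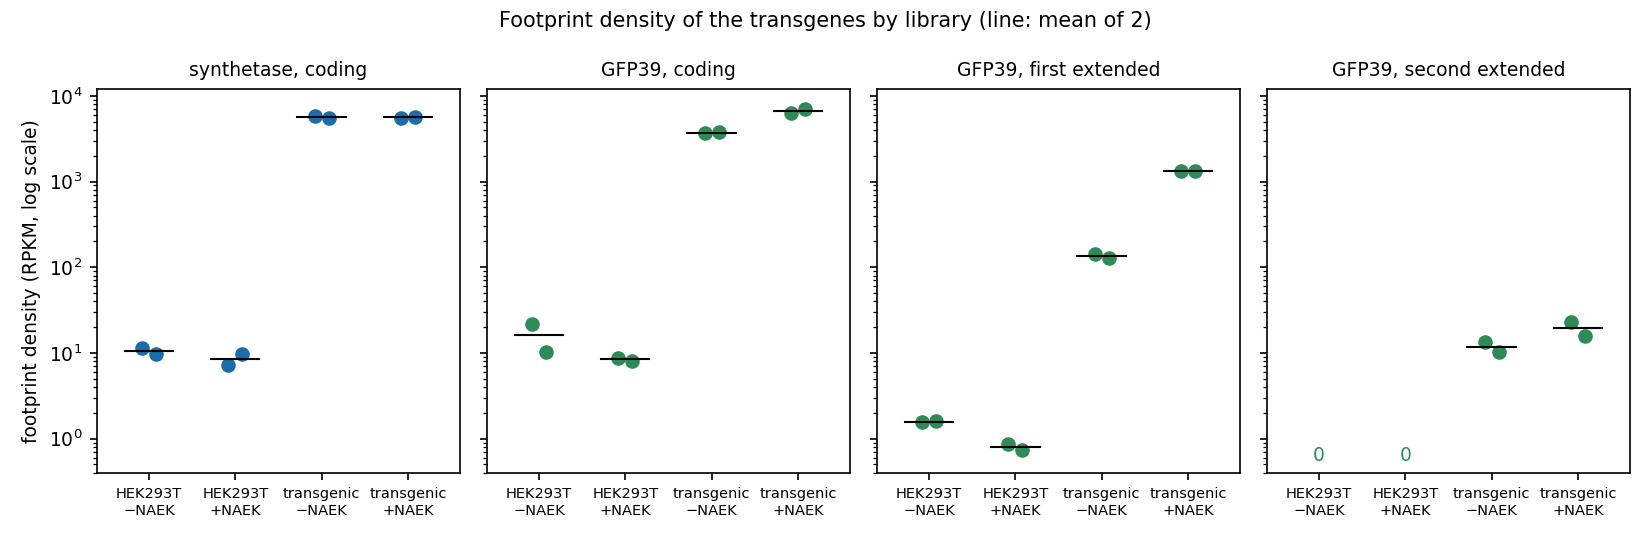
Footprint density in RPKM (log axis) of the synthetase coding region and of the 3 GFP39 regions in each of the 8 libraries, with points for libraries and lines for the mean of 2. The GFP39 first extended region stands at 142 and 129 RPKM without NAEK and at 1312 and 1333 RPKM with it in transgenic cells, and 0 marks groups with no reads.

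The rise of the first extended region was 3.28 on the log2 scale (SE 0.27, 95% interval 2.65 to 3.92) and passed the test (limma adjusted p = 0.0223). In that comparison 1.6% of 7799 first extended regions rose past the threshold, and 25.8% of the endogenous ones had both libraries with NAEK above both without. The call was lost when transgenic -NAEK replicate 1 (adjusted p = 0.157), replicate 2 of that group (0.183) or transgenic +NAEK replicate 2 (0.0590) was left out. The log2 change then lay in the range of 3.21 to 3.35. It was also lost with the replicate number as a block (0.0648), with no filter on reads (0.119) and with only the 4 libraries compared (0.156). Over all 12 alternatives the log2 change ran from 3.19 to 3.35, and the adjusted p from 7.36e-39 with voom to 0.183.

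With NAEK, the GFP39 region held more reads than any other first extended region. Of all reads in first extended regions, it held 0.738 and 0.645% in transgenic libraries without NAEK, and 6.06% in both libraries with NAEK. Without NAEK, 7 and 10 endogenous first extended regions held more reads than that of GFP39. In the libraries with NAEK the next region held 6771 and 3495 reads. By density the GFP39 region ranked 175 and 221 without NAEK and 4 and 3 with it.

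Passage of the stop codon was expressed as first extended density in percent of coding density. It was 3.86% (exact 95% counting interval 3.66 to 4.07) and 3.42% (3.24 to 3.61) without NAEK in transgenic cells. With NAEK it was 20.9% (20.5 to 21.4) and 19.1% (18.6 to 19.6). The group values were 3.64 ± 0.315% and 20.0 ± 1.30% (SD, n = 2), a 5.50-fold difference without overlap (exact two-sided permutation p = 0.333, the smallest possible). Of endogenous transcripts tested, 23.5% also had both libraries with NAEK above both without.

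In the limma fit of this ratio over 7799 transcripts, with 1 RPKM added to both regions, the GFP39 difference was 2.45 on the log2 scale (SE 0.47, 95% interval 1.34 to 3.56). It did not pass (adjusted p = 0.0817), and 0.0128% of the ratios rose past the threshold. With a pseudocount of 5 it passed (adjusted p = 0.0303), and over 11 alternatives the adjusted p ran from 0.0303 to 0.291.

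Endogenous transcripts at the same coding level held few footprints after their stop codons. Without NAEK, 27 protein-coding entries had a coding density within 2-fold of GFP39, and 17 of them had a first extended region of at least 30 nt. Their passage had a median of 0.622% and ran from 0.0327 to 2.66%, all below the 3.64% of GFP39. Library by library, 16 of 17 and 18 of 18 such entries were lower. With NAEK, GFP39 was so dense that only 4 entries lay within 2-fold of it, and 2 of them had such a region, at 0.379 and 0.881% against 20.0% for GFP39.

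A window of 4-fold gave more entries to compare with. With NAEK it held 19 entries with a region of at least 30 nt, with a median of 0.729% and a highest value of 2.53%, all below GFP39. Without NAEK it held 56, of which 6 were above GFP39 and the highest reached 72.4%. Matched on coding reads in place of density, 98.4% of 64 entries were below GFP39 with NAEK and 83.3% of 204 without it.

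None of the 17 entries matched on density came near the difference in GFP39 passage with NAEK. By mean densities that passage was 5.49-fold higher. Among the 17 entries within 2-fold of GFP39 without NAEK, the same quotient ran from 0.285 to 1.74 with a median of 0.926. Of these 17, 4 had both libraries with NAEK above both without and 4 had both below. Less dense entries reached it, 2 of 55 in the 4-fold window among them. Among 637 protein-coding entries with at least 1000 coding reads in every library, a region of at least 30 nt, at least 10 first extended reads over the transgenic libraries and some of them without NAEK, the median quotient was 1.18, and 74 entries (11.6%) had one of at least 5.49.

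GFP39 stood higher in that wider population in both libraries with NAEK. Of 1293 protein-coding entries with at least 1000 coding reads in every library and a region of at least 30 nt, 79.8 and 75.5% lay below GFP39 without NAEK and 95.6 and 94.7% with it. Their median passage was 1.06 and 1.08% without NAEK and 1.19 and 1.26% with it. A region as long as that of GFP39 was rare. The 21 entries with a region within 2-fold of its length had medians of 0.292 and 0.401% without NAEK and 0.458 and 0.394% with it. Their highest values were 2.43 and 1.58% without NAEK and 10.6 and 5.05% with it, below GFP39 in each library. These populations were chosen after seeing the data.

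**Figure D3:**
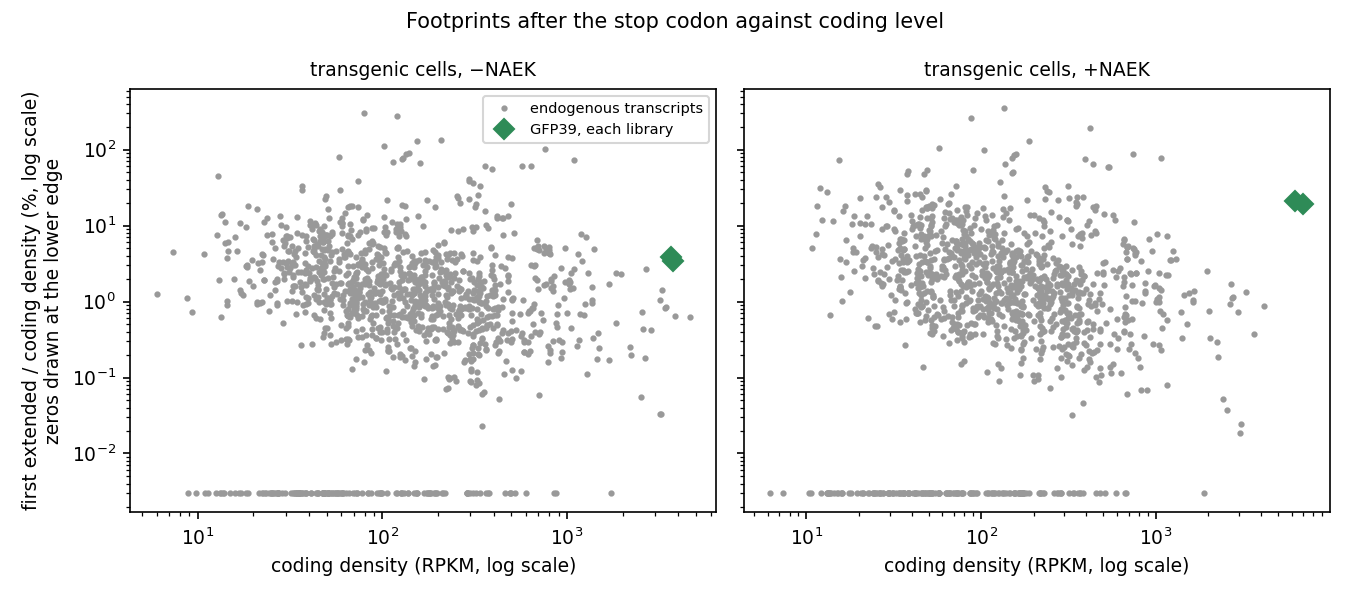
First extended density in percent of coding density (log axis) against coding density in RPKM (log axis) for 1293 endogenous protein-coding entries with at least 1000 coding reads in every library and a first extended region of at least 30 nt, without NAEK on the left and with NAEK on the right. Grey points are means of 2 transgenic libraries, with zeros at the lower edge, and diamonds are the 2 libraries of GFP39, at 3.86 and 3.42% without NAEK and 20.9 and 19.1% with it.

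Few footprints lay beyond the next stop codon. The second extended region of GFP39, 126 nt, held 13.2 and 10.4 RPKM without NAEK, on 29 and 24 reads. With NAEK it held 23.1 and 16.0 RPKM, on 50 and 26 reads. The libraries did not overlap, as for 22.3% of endogenous second extended regions tested in the same direction. The difference of 0.67 on the log2 scale (SE 0.44, 95% interval -0.38 to 1.71) did not pass (limma adjusted p = 0.793), against 0.0618% of second extended regions that did. No read was listed there in any HEK293T library. Against a set floor of 3 reads per library, transgenic density was 8.65-fold higher without NAEK and 14.9-fold higher with it.

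Relative to the coding region, second extended density overlapped between libraries with and without NAEK. It was 0.361 and 0.276% of the coding density without NAEK and 0.368 and 0.229% with it (exact two-sided permutation p = 1.0). The exact 95% counting intervals of these ratios ran from 0.177 to 0.519% without NAEK and from 0.149 to 0.486% with it. Relative to the first extended region, it was 9.35 and 8.07% without NAEK and 1.76 and 1.198% with it. That is a 5.89-fold lower value with NAEK, without overlap (exact two-sided permutation p = 0.333, the smallest possible). This ratio equals the second extended over coding ratio divided by passage. Its lower value thus follows from the higher passage together with the overlapping second extended over coding ratio, and is no further measurement. The plot of the 3 ratios shows the first step higher with NAEK, the second extended over coding ratio overlapping and the last step lower.

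**Figure D4:**
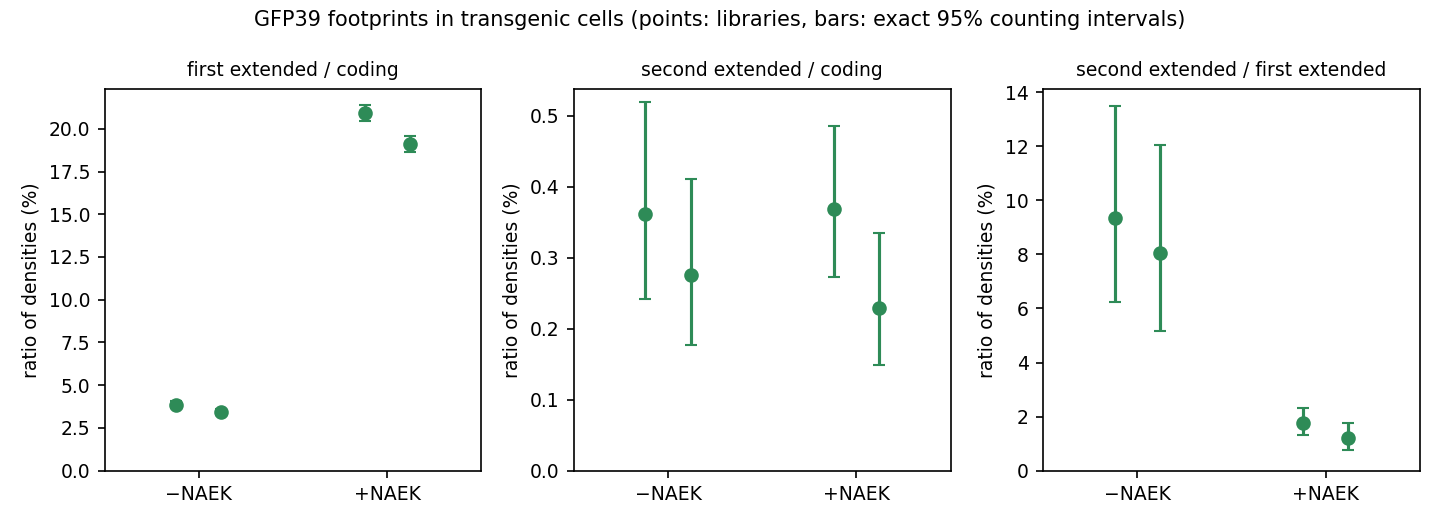
Ratios of GFP39 footprint densities in percent for the 4 transgenic libraries without and with NAEK, from left to right first extended over coding, second extended over coding, and second extended over first extended. Points are libraries and bars are exact 95% intervals that cover counting error only. Passage is 3.86 and 3.42% and then 20.9 and 19.1%, second over coding lies between 0.229 and 0.368%, and second over first is 9.35 and 8.07% and then 1.76 and 1.198%.

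HEK293T libraries, whose labels name no transgene, held few reads of both. The synthetase had 254 and 223 coding reads in the libraries without NAEK and 192 and 202 in those with it, and GFP39 had 54 and 26 and then 26 and 19. Mean synthetase density in HEK293T cells was 0.187% of the transgenic level without NAEK and 0.151% with it. For GFP39 coding it was 0.430 and 0.128%. These levels still ranked above 69.3 to 86.6% of the endogenous entries with reads.

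Between lines, limma called both transgenes higher at each NAEK state. They were the only coding regions called higher, 2 of 46156 (0.00433%) without NAEK and 2 of 46156 (0.00433%) with it. The differences were 8.94 and 9.22 on the log2 scale for the synthetase, without and with NAEK (SE 0.13 for each, adjusted p = 1.32e-07 and 1.03e-07). For GFP39 they were 7.86 and 9.45 (SE 0.27 for each, adjusted p = 5.39e-05 and 1.26e-05). The first extended region of GFP39 differed by 5.72 without NAEK (SE 0.27, adjusted p = 0.000783), where it was the only such region called higher (1 of 7799, 0.0128%). With NAEK it differed by 9.52 (SE 0.27, adjusted p = 2.12e-05), where 1.42% were called higher. These folds rest on HEK293T libraries with at most 19 first extended reads each. GFP39 met the filter on mean coding reads over all libraries through the transgenic libraries. It had 9172 to 15525 coding reads there, against 19 to 54 in HEK293T libraries. With no filter on reads, both first extended differences still passed (limma adjusted p = 0.00648 and 0.000259). As the HEK293T labels name no transgene, the direction was set by the choice of lines. The p-values between lines thus add little to the densities.

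The few GFP39 reads in HEK293T libraries leave their split between regions imprecise. Of the GFP39 reads in the coding and first extended regions, 25.0% (exact 95% interval 15.5 to 36.6) and 42.2% (27.7 to 57.8) lay in the first extended region in HEK293T libraries without NAEK, and 31.6% (17.5 to 48.7) and 29.6% (13.8 to 50.2) in those with it. In transgenic libraries the share was 15.3 and 13.8% without NAEK and 49.4 and 47.1% with it. The HEK293T values lay between those of the transgenic groups. The intervals of 3 of the 4 HEK293T libraries reached at least the lower share with NAEK, 47.1%. That of HEK293T +NAEK replicate 2 also reached the shares without NAEK, and that of HEK293T -NAEK replicate 1 reached no transgenic share. GFP39 coding reads were 17.5 and 10.4% of the coding reads of both transgenes in HEK293T libraries without NAEK and 11.9 and 8.60% in those with it. In transgenic libraries they were 6.57 and 7.05% without NAEK and 11.2 and 12.2% with it, so that the HEK293T range took in the values with NAEK. These intervals cover counting error only, and where the reads in HEK293T libraries come from was not tested.

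Of 7798 endogenous first extended regions tested, 32 (0.410%) had a Pearson r above 0.9 with the GFP39 region in log2(RPKM + 1) over the 8 libraries, which fall into levels set by line and NAEK, so that r describes those steps. The most alike was that of ENST00000253237 (r = 0.993 over 8 libraries), a region of 171 nt. It had 0.284 to 0.361 RPKM in HEK293T libraries, 1.01 and 0.955 RPKM in transgenic libraries without NAEK and 1.70 and 1.81 RPKM with it. Those values rest on 1 to 5 reads per library. The next was ENST00000587394 (r = 0.979), with 0 reads in HEK293T libraries and 1 to 4 in transgenic ones. The endogenous coding region most like the synthetase, ENST00000345239 (r = 0.991), stood at 7.82 to 8.58 RPKM in HEK293T and 12.6 to 13.0 RPKM in transgenic libraries.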

How the data were processed

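The authors deposited RPKM values per transcript region, 1 table per group with replicates apart, per the file headers. The kit was TruSeq Ribo Profile, per the labels' protocols. The submitters' processing notes name Bowtie 1.2.2 and the build hg38. No source used here gives the annotation or the handling of reads that match several transcripts.

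Whole reads were recovered by taking the shortest region length that made all 8 values whole within 0.01 reads. Library totals came from the 1290 nt that the synthetase entry names. All regions with reads came out whole, and thin regions may be given too short a length. Intervals are exact (Clopper-Pearson) at 95%, floors are 3 reads, and both cover counting error only.

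Differences in log2(RPKM + 1) were tested with limma 3.58.1 (R 4.3.3) across all transcripts with group as the only factor, a variance trend, all 8 libraries and Benjamini-Hochberg adjustment at 0.05. Coding regions needed a mean of 1 RPKM (46156 kept). Extended regions needed a mean of 50 coding reads and 10 reads in the region over all libraries (7799 first and 3238 second kept). Folds on this scale understate changes of low values. Both members passed the coding filter, and GFP39 alone passed the extended filters. The steps were tested on simulated data. The rest used scipy 1.17.1, pandas 2.3.3, numpy 2.4.6 and matplotlib 3.10.9 in Python 3.11.15.

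The members, lists and tests were chosen with earlier results of these data known. Endogenous entries were named by rank beside the transgenes and by likeness of pattern, fewer than the rule allows because identifiers could not be paired with symbols. For the same reason the list of stop codon decoding factors and the cell line markers were not used, and no check of the cell line was made. No sequence of either transgene was used here.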

Additional observations from a re-analysis of the deposited data

How the results depend on the processing

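Between lines, where the choice of lines set the direction, both coding regions passed under all 12 alternatives each. The GFP39 first extended region passed under all 12 with NAEK and 11 of 12 without it. Without NAEK it failed with only the 4 libraries compared (log2 5.72, limma adjusted p = 0.254). Leaving out single replicates, those log2 differences ran from 8.84 to 9.04 and 9.03 to 9.41 for the synthetase, 7.35 to 8.37 and 9.37 to 9.53 for GFP39 coding, and 5.65 to 5.79 and 9.47 to 9.58 for its first extended region. The last moved more with the pseudocount, to 4.41 and 7.84 with 5 and to 6.33 and 10.5 with 0.1, and to 6.38 and 10.6 with voom. For NAEK in transgenic cells, GFP39 coding passed with voom alone (0.83). Leaving out replicates gave 0.75 to 0.91 there, 3.21 to 3.35 for the first extended, 0.42 to 0.92 for the second extended region and 2.36 to 2.54 for the passage ratio, which passed with a pseudocount of 5 alone (2.41). The first extended rise kept its value of 3.28 but not its call with no filter, with the replicate block and with only the 4 libraries compared. The synthetase change turned from -0.02 to 0.0134 without transgenic -NAEK replicate 1, and lay between -0.0583 and 0.0134 over replicates left out, against -0.229 with quantile normalization. The cause was not tested.

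Replicate numbers are shared between groups. Deviations of same-numbered libraries correlated at 0.0482 between the transgenic groups and at 0.137 to 0.324 for other pairs of groups. They were not taken as pairs, and a shared source was not tested. Of the calls printed for the transgenes themselves, the block ended only that of the first extended rise. Over all regions, it left 0 first extended and 0 ratio calls for NAEK in transgenic cells. First extended regions called higher between lines with NAEK fell from 111 to 1. Coding calls between lines with NAEK grew, from 2 higher and 4 lower to 100 higher and 163 lower. First extended calls for NAEK in transgenic cells numbered 136, and 0 to 274 under alternatives. For lines they numbered 2 (0 to 3) and 137 (1 to 350), and coding calls 0 (0 to 9), 3 (3 to 345) and 6 (2 to 931). Second extended calls for NAEK in transgenic cells numbered 2 (0 to 6), and ratio calls 1 (0 to 42). The share of matched entries below GFP39 without NAEK was 100%, but 89.3% within 4-fold, 83.3% matched on reads and 94.1 to 100% in single libraries. With NAEK it was 100%, and 98.4% matched on reads. The GFP39 rank by density without NAEK was 6, or 6 and 7 in single libraries. A window of 1.5-fold with NAEK left no entry with a region, and 1 transcript per gene was not run, since no table gives the gene. Replicates differed by more than sampling noise (chi-square per degree of freedom 2.09 to 4.91).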
